A study of Homo sapiens with 8 samples.

Results

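The respiratory chain subunit genes are the nuclear genes that encode the protein parts of the 5 oxidative phosphorylation complexes. They were chosen by symbol among the 19222 protein-coding genes of chromosomes 1 to 22 in GENCODE, and 84 genes were found. Of these, 34 encode subunits of complex I, 4 of complex II, 10 of complex III, 18 of complex IV and 18 of complex V, with NDUFA4 and NDUFA4L2 counted in complex IV. The readthrough records ATP5MF-PTCD1 and NDUFC2-KCTD14 were left out. The 84 members were described in HCT8 cells, an established human ileocecal colorectal adenocarcinoma line, that were non treated (mock) or cultured for 5 h with membrane vesicles (MVs) of *E. coli* MC1061 or of *V. cholerae* C6706. H3K4me3 ChIP sequencing and FAIRE sequencing gave 6 peak lists, 1 per treatment and assay. The titles of the FAIRE libraries do not name the assay, which was read from their library kit and the methods of the study. The 2 input libraries were not analysed here. With 1 library per treatment there is no replicate check, so no difference between treatments was tested and no p-value is given.

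The respiratory chain lies in the inner mitochondrial membrane. Complexes I and II pass electrons from NADH and succinate to ubiquinone, complex III passes them on to cytochrome c, complex IV hands them to oxygen, and complex V uses the proton gradient to make ATP. Most subunits are encoded in the nucleus and used in every cell type, a few have isoforms restricted to muscle, testis, lung or hypoxic cells, and the mitochondrial genome encodes the rest. Nuclear respiratory factor 1 (NRF1), ETS proteins such as GABP, YY1 and SP1 are known to bind promoters of respiratory genes. H3K4me3 marks the nucleosomes around active start sites, and FAIRE recovers DNA that is free of nucleosomes.

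Each gene was given a value per library by adding up the normalized tag counts (tags per 10000000 tags of the library) of the peaks that lie within 1000 bp of one of its annotated start sites. The H3K4me3 libraries held 3463875 tags for mock, 10528314 for *E. coli* MVs and 13011839 for those of *V. cholerae*, of which 38.6%, 53.9% and 56.1% lay in peaks. The FAIRE libraries held 14474665, 7888670 and 12077180 tags, with 7.12%, 37.3% and 13.9% in peaks. The lowest normalized tag count of any called peak was between 5.8 and 11.5, so a gene without a peak is one below the reach of the peak calling and not one at 0. Of 10 epithelial colon markers, all had an H3K4me3 peak in every library. Of 8 blood markers 1 had one (CD14), and of 7 fibroblast, endothelial, muscle and neuronal markers none had one in mock and 2 had one with either MV, COL1A1 and RBFOX3, with summed values of 25.65 and 31.5 against 4050.5 to 7018.1 for the epithelial markers. In FAIRE, mock had a peak at 6 of the 10 epithelial markers (summed value 107.73) and at 4 of the 7 others (104.27), so the cell types were not separated there, while the sums were 2540.2 and 550.1 with *E. coli* MVs and 1071.95 and 111.9 with those of *V. cholerae*. In a bulk library, a mark carried by more cells and more of the mark per cell cannot be told apart.

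The promoter windows of the members held the NRF1, ETS and YY1 motifs more often than windows in general, with smaller differences for SP1, the TATA box and CpG. RefSeq (build GRCh38.p14) gave 78 promoter windows, from 250 bases before to 50 after the start, for 65 of the 84 members, and 20552 windows for 14591 protein-coding genes in all. The median window had 22 CpG and 60.2% GC for the members, against 21 CpG and 62.7% GC for all windows. Each window was searched on both strands for 5 motifs, none of which contains another. The core of the NRF1 site, searched as TGCGCA, was present in 21 of the 78 member windows (26.9%) against 9.71% of all windows. The motif of ETS proteins, searched as CCGGAAG, was present in 21 member windows (26.9%) against 13.0% of all. The YY1 motif, searched as AAGATGG, was present in 19 (24.4%) against 5.97%. The SP1 motif, searched as GGGCGG, was found in 61.5% against 57.1%, and the TATA box, searched as TATAAA, in 7.69% against 9.47%. At least 1 of the first 3 motifs was found in 42 member windows (53.8%) against 25.1% of all windows. The YY1 motif began within the 50 bases after the start in 13 member windows (16.7%) against 2.71% of all. No test was run on these shares, and a match is not a bound site. Windows of the same gene can overlap, as for NDUFB8 and ATP5PF, so a site can be counted in more than 1 window.

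6 windows are shown, COX6A1 and COX6A2 as an isoform pair, SDHA for its repeated NRF1 cores, and UQCR11, ATP5PO and NDUFA9 as members with the highest or lowest H3K4me3 ratios described further on. Capitals mark the 5 motifs on either strand. COX6A1 (chr12:120437863-120438162, plus strand) and COX6A2 (chr16:31428311-31428610, minus strand) encode the widely used and the heart and muscle form of the same complex IV subunit. SDHA (chr5:218070-218369, plus strand) encodes the flavoprotein of complex II. UQCR11 (chr19:1605413-1605712, minus strand) encodes a small complex III subunit, ATP5PO (chr21:33915755-33916054, minus strand) the stalk subunit of ATP synthase that confers oligomycin sensitivity, and NDUFA9 (chr12:4648864-4649163, plus strand) an accessory complex I subunit.
COX6A1: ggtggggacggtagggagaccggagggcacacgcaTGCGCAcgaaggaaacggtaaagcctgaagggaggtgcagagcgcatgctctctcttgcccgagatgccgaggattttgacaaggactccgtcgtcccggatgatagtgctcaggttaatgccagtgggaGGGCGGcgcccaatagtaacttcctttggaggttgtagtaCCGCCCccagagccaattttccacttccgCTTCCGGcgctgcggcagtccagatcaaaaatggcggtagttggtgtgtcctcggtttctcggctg
COX6A2: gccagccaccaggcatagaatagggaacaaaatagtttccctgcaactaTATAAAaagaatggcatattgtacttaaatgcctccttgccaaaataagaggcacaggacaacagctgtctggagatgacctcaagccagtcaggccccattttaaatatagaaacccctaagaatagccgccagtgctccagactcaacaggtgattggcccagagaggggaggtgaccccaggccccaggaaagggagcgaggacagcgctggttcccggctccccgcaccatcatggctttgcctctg
SDHA: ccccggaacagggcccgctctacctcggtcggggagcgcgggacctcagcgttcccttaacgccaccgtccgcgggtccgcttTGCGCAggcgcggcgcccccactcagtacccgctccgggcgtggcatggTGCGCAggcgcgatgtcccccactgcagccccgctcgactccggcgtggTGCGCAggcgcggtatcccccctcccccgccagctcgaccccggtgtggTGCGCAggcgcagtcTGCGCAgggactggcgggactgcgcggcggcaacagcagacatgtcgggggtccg
UQCR11: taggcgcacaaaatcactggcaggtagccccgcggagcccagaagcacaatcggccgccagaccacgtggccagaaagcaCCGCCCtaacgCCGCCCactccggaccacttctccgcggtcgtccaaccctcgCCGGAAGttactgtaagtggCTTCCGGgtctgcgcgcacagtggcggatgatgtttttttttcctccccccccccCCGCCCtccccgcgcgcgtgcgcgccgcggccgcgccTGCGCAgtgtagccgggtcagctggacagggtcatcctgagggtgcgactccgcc
ATP5PO: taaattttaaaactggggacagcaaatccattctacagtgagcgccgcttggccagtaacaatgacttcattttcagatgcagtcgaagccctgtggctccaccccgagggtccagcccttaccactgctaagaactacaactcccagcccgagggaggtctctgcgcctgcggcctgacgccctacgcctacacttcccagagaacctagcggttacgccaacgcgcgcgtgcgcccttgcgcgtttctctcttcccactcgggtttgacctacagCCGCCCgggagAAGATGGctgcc
NDUFA9: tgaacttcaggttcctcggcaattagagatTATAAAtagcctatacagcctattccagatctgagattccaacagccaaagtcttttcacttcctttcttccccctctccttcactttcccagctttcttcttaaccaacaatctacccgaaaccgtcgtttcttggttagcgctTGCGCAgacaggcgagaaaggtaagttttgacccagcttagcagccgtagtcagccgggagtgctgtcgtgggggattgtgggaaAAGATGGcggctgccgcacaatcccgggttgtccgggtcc
The COX6A1 window held 1 NRF1 core, 1 ETS and 2 SP1 motifs and 22 CpG. The COX6A2 window held 5 CpG and, of the motifs, only the letters TATAAA, at position 50 from its 5′ end and so far before the start. Other pairs did not divide in this way: the window of the restricted COX6B2 had 31 CpG and 72.0% GC against 16 CpG for the common COX6B1, and that of the restricted COX8C held an NRF1 core where that of COX8A held none. Windows were at hand for 4 of the 9 members set apart as restricted isoforms or retrocopies (gene copies made from RNA). The SDHA window had 41 CpG and 5 NRF1 cores, the first 4 of them at positions 84, 133, 182 and 231 counted from its 5′ end. The UQCR11 window held an NRF1 core, 2 ETS and 3 SP1 motifs at 68.0% GC. The ATP5PO window held an SP1 motif at position 278 and a YY1 motif at position 289, both on the transcribed side of the start, at 58.3% GC. The NDUFA9 window held an NRF1 core, a YY1 motif and, at position 31 and so far before the start, the letters TATAAA, at 50.7% GC.

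H3K4me3 was present at nearly all members in every library. In mock 76 of the 84 members had a peak, 77 did after either MV treatment, and 76 had one in all 3 libraries (90.5% against 60.9% of all protein-coding genes). All members of complexes I and II were among them. The 75 members in general use had a peak in every library, and the other 9 accounted for each member without one. These 9 are isoforms known to be restricted to certain tissues or states, or retrocopies (COX4I2, COX6A2, COX6B2, COX7A1, COX7B2, COX8C, NDUFA4L2, UQCRHL and ATP5MGL).

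**Figure D1:**
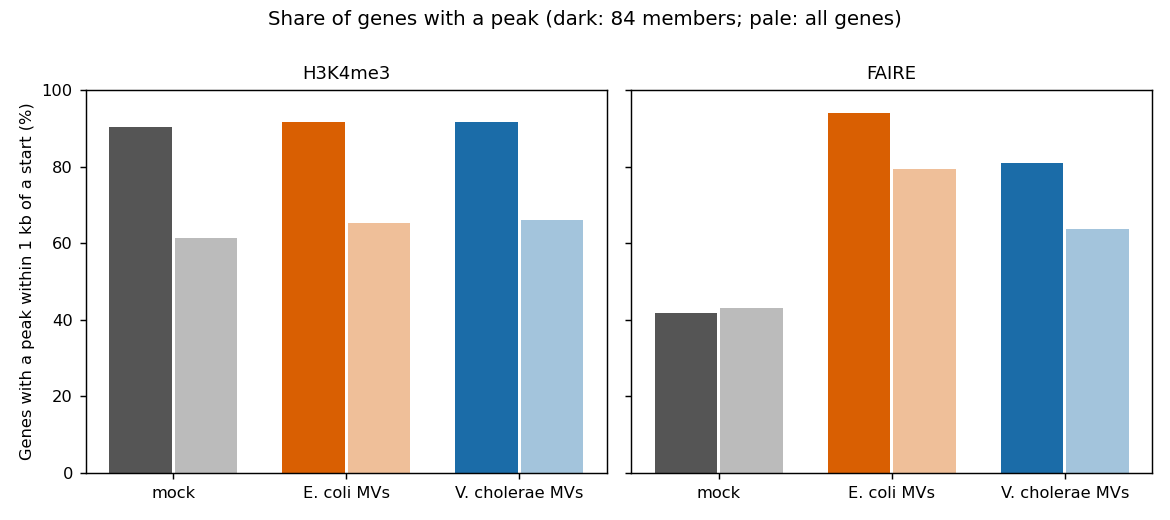
Share of genes with a peak within 1 kb of a start site, in percent (y axis), for mock, *E. coli* MVs and *V. cholerae* MVs (x axis), in H3K4me3 (left) and FAIRE (right). Dark bars are the 84 members and pale bars all 19222 genes, and the members stand above all genes in each H3K4me3 library and with both MVs in FAIRE, while the 2 shares are close in mock FAIRE (41.7% and 43.2%).

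The isoform pairs divided by this use. COX4I1, the common form of a complex IV regulatory subunit, had 493.7 normalized tags in mock, 834.9 after *E. coli* MVs and 949.1 with those of *V. cholerae*, while COX4I2, the form of lung and hypoxic cells, had no H3K4me3 peak. COX6A1 had 288.7, 456.9 and 415.0, and COX6A2 had no peak. COX8A, the common form of the smallest complex IV subunit, had 164.6, 349.5 and 371.2, and COX8C, known from testis, had none. COX7A2 had 441.7, 567.0 and 477.3 and the related supercomplex factor COX7A2L 470.6, 639.2 and 638.6, whereas COX7A1, the form of heart and muscle, had none. The common members of these families were thus marked in each library and their restricted relatives in none.

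2 restricted isoforms did carry weak peaks. COX6B2, the testis form beside the common COX6B1 (349.3, 445.5 and 426.5), had no peak in mock, 11.4 normalized tags (12 tags) with *E. coli* MVs and 13.1 (17 tags) with those of *V. cholerae*. NDUFA4L2, a hypoxia-induced relative of the complex IV subunit NDUFA4, had 20.2 normalized tags in mock, from 7 tags, 63.6 with *E. coli* MVs and 96.1 with those of *V. cholerae*. Its log2 ratio to mock was 1.65 (exact 95% counting interval 0.53 to 3.02) and 2.25 (1.16 to 3.59), among the highest of the members. Per 1000 bp of called peak its values were 40.4, 37.1 and 51.7, so most of the difference lay in the length called, and the level in each library was below that of NDUFA4 (199, 218 and 182 per 1000 bp). The intervals given here for single genes are binomial (Clopper-Pearson) ones on the tags and cover counting error only.

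**Figure D2:**
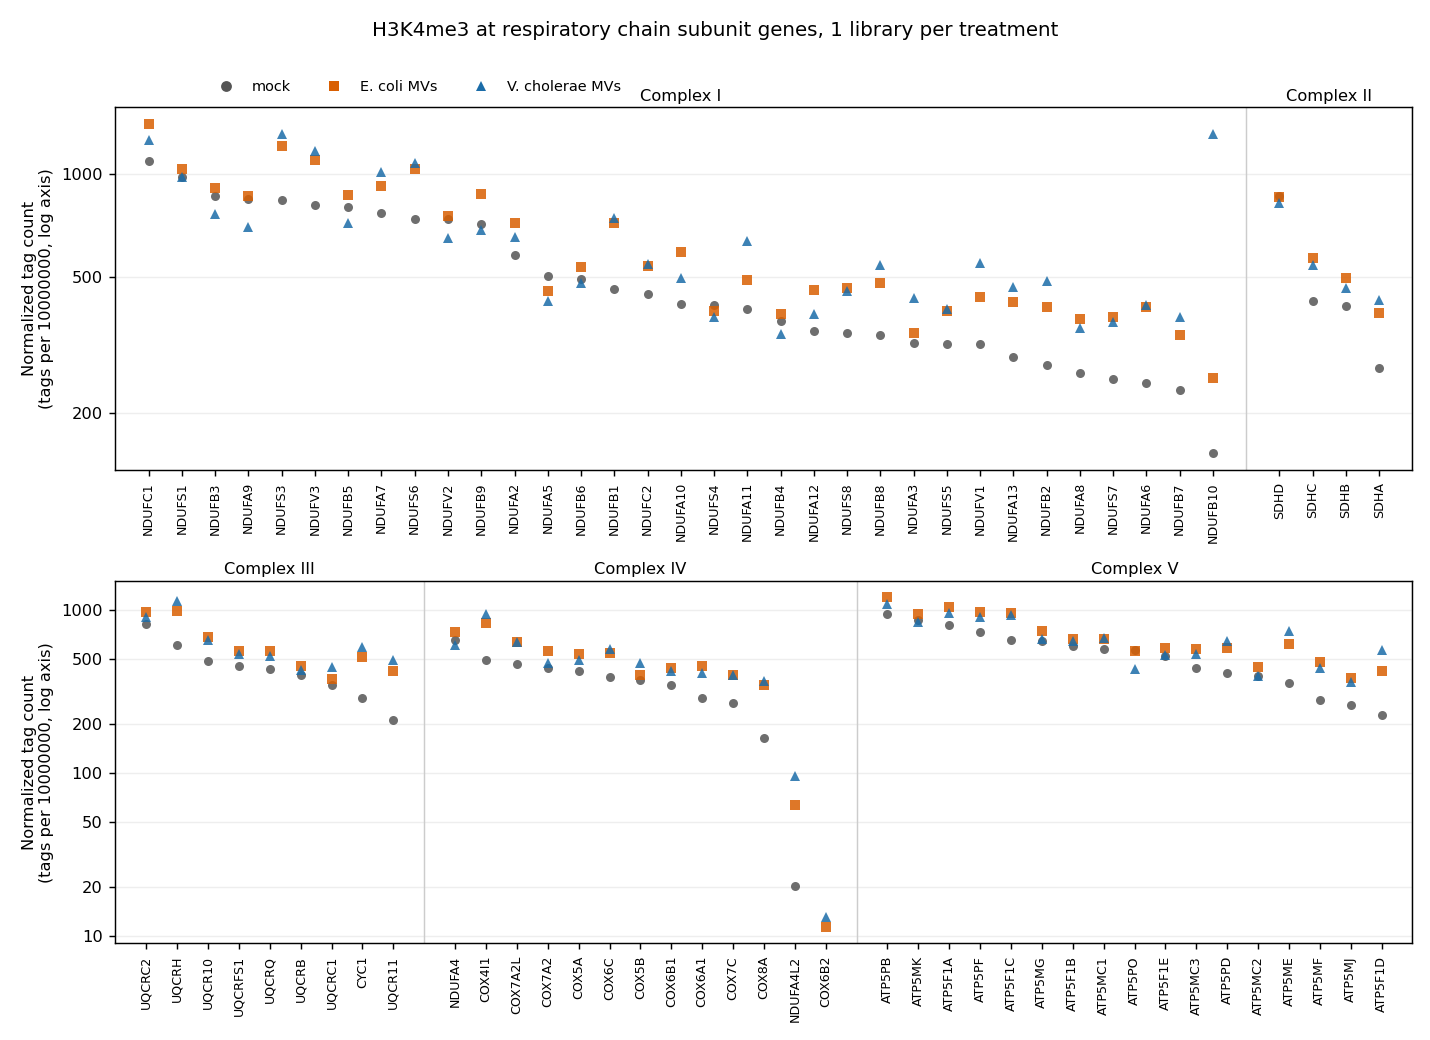
H3K4me3 of 76 of the 77 members with a peak in at least 1 library, as normalized tag count (tags per 10000000, log y axis), grouped by complex and ordered by the mock value (x axis). Each symbol is 1 library, a missing symbol is a library without a peak, and apart from NDUFA4L2, COX6B2 and the *V. cholerae* value of NDUFB10 the 3 values of a gene differ by less than 3-fold.

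At the 76 members with a peak in both libraries, H3K4me3 was higher than in mock at 72 with *E. coli* MVs, against 96.0% of all genes, and at 62 with *V. cholerae* MVs, against 91.2%. The members' median log2 ratio to mock was 0.38 (95% interval from ranks 0.31 to 0.48) for *E. coli* MVs and 0.35 (0.24 to 0.47) with those of *V. cholerae*. Over all genes with a peak in both libraries it was 0.52 and 0.63. Relative to that shift the members therefore stood at -0.14 and -0.28, and 53 and 55 of the 76 were below the median of all genes. Without this centring the medians keep their positive sign, so the members were lower only in relation to other genes.

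A gene was called higher or lower where its ratio was at least 1.5-fold above or below the median of all genes. With *E. coli* MVs 1 member was called higher and 1 lower, where 11.1% and 2.40% of all genes were. With *V. cholerae* MVs 3 were called higher, where 18.3% of all genes were, and 17 lower (10 of complex I, 1 of complex II, 1 of complex IV and 5 of complex V), where 10.7% of all genes were. Between the MVs, *V. cholerae* against *E. coli*, the median of 77 members was -0.05 (-0.09 to 0.01) and that of all genes 0.12. The value was lower with *V. cholerae* MVs at 45 of the 77, against 30.9% of all genes, and 1 member was called higher and 0 lower, where 3.95% and 1.24% of all genes were. The ratios to mock share the mock library, so their likeness is not independent.

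The complexes lay close to each other. With *E. coli* MVs their median log2 ratios to mock were 0.38 for complex I, 0.35 for complex II, 0.37 for complex III, 0.47 for complex IV and 0.37 for complex V. With *V. cholerae* MVs they were 0.37, 0.27, 0.36, 0.48 and 0.24 in the same order. All 10 medians were below that of all genes, and the intervals of complexes I, III, IV and V overlapped in both comparisons. For the 4 genes of complex II, which also work in the citric acid cycle, SDHA had 271.4, 393.2 and 428.8 normalized tags in mock, after *E. coli* MVs and with those of *V. cholerae*, SDHB, the iron-sulfur subunit, 409.9, 495.8 and 463.4, and the membrane anchors SDHC 424.4, 566.1 and 542.6 and SDHD 860.3, 857.7 and 823.1. SDHD was the one of the 4 without a higher value after treatment.

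The members with the highest ratios include a complex IV, a complex III and a complex V gene. COX8A stood at a log2 ratio of 1.09 (0.68 to 1.52) for *E. coli* MVs and 1.17 (0.78 to 1.60) with those of *V. cholerae*. UQCR11 had 213.6, 427.4 and 492.6 normalized tags, a log2 ratio of 1.00 (0.64 to 1.38) and 1.21 (0.86 to 1.57). ATP5F1D, the delta subunit of the ATP synthase rotor, had 228.1, 421.7 and 570.2, a log2 ratio of 0.89 (0.54 to 1.25) and 1.32 (0.99 to 1.68), and it is also among the 3 highest between the MVs at 0.44 (0.26 to 0.61). Per 1000 bp of called peak ATP5F1D had 105, 101 and 108, so its peak was longer rather than denser. NDUFB10, an accessory complex I subunit, had 153.0, 252.7 and 1303.4, but with *V. cholerae* MVs its peak was called as one with that of RPS2 and RNF151, and over the joined region (chr16:2009151-2016993, hg19) the values were 840.1, 1199.7 and 1303.4. On that measure its log2 ratio for *V. cholerae* MVs against mock differed from the median of all genes by 0.0079.

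The lowest ratios fell on ATP5PO, NDUFA9, NDUFA5, NDUFS4 and, between the MVs, NDUFB9. ATP5PO had 574.5, 567.0 and 437.3 normalized tags, a log2 ratio of -0.02 (-0.25 to 0.22) for *E. coli* MVs and -0.39 (-0.63 to -0.15) with those of *V. cholerae*. NDUFA9 had 845.9, 863.4 and 697.8, a log2 ratio of 0.03 (-0.16 to 0.22) and -0.28 (-0.47 to -0.08), in a peak it shares with AKAP3. NDUFB9 had 713.1, 871.0 and 683.2. These genes had less H3K4me3 with *V. cholerae* MVs than with those of *E. coli*, with log2 ratios between the MVs of -0.37 (-0.54 to -0.21) for ATP5PO, -0.35 (-0.49 to -0.22) for NDUFB9 and -0.31 (-0.44 to -0.17) for NDUFA9. NDUFA5, in the arm of complex I, had 502.3, 455.9 and 425.0 and NDUFS4, mutated in some patients with Leigh syndrome, 412.8, 398.9 and 382.7, and the counting intervals of both genes include 0 against mock.

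The members' ratios followed the GC content of their peaks. Over all genes, split into 4 equal bands by the GC content of the mock H3K4me3 peaks, the median log2 ratio to mock increased from 0.23 in the lowest band through 0.41 and 0.61 to 0.95 in the highest with *E. coli* MVs, and from 0.13 through 0.47 and 0.79 to 1.29 with those of *V. cholerae*. The members' peaks had a median GC content of 50.3% against 54.9% for all genes, 36 of the 76 lay in the lowest band and 6 in the highest. Measured against the genes of their own band, an alternative chosen after seeing the data, the members' median was -0.05 (-0.08 to 0.05) for *E. coli* MVs and -0.09 (-0.14 to 0.0051) with those of *V. cholerae*, and the lower calls with *V. cholerae* MVs went from 17 to 0. The share of all genes called lower under this centring was not computed, so the fall in calls cannot be set against it. ATP5PO (46.7% GC), NDUFA9 (43.1%) and NDUFA5 (42.4%) are at the poor end and ATP5F1D (67.1%) and UQCR11 (63.0%) at the rich end. A part of base composition in the sequencing of the libraries and one in the cells was not tested.

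**Figure D3:**
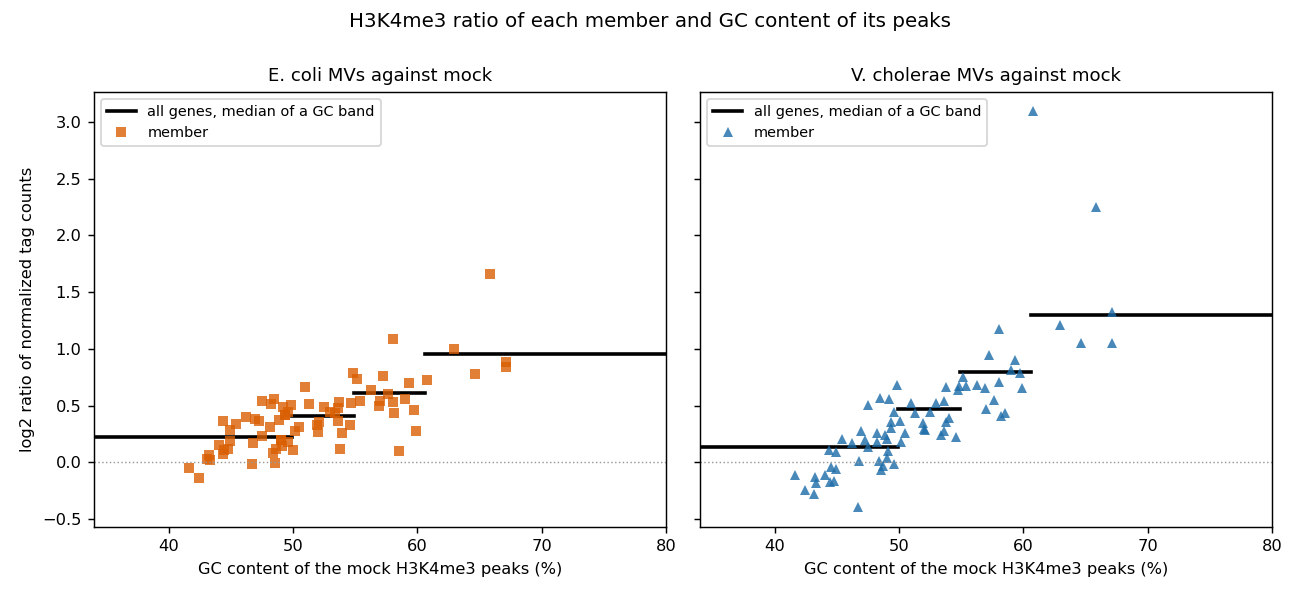
Log2 ratio of H3K4me3 normalized tag counts to mock (y axis) against the GC content of the mock peaks in percent (x axis) for the 76 members with both values, with *E. coli* MVs (left) and *V. cholerae* MVs (right). Each symbol is a member and black lines are the medians of all genes in each band of GC content, from 0.23 to 0.95 (left) and 0.13 to 1.29 (right), and the members climb along the lines.

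Per 1000 bp of called peak, which allows levels to be compared between genes, the members were more densely marked than other genes in each library. Their medians were 180 in mock, 206 after *E. coli* MVs and 205 with those of *V. cholerae*, against 126, 152 and 164 over all genes. The length-scaled order in mock ran from NDUFB3 (331), SDHD (305) and UQCRC2 (281) to SDHA (86.4), NDUFB10 (75.04) and NDUFA4L2 (40.4). In normalized tag counts added over the 3 libraries the highest members were NDUFC1, NDUFS3 and ATP5PB, whose peaks are shared with the start sites of NAA15, of CELF1, KBTBD4 and PTPMT1, and of WDR77. NDUFC1 had 1091.2, 1401.0 and 1251.9, NDUFS3 840.1, 1206.3 and 1304.2 and ATP5PB 952.7, 1200.6 and 1099.0.

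The called peaks were longer after both treatments. Their median length at the members was 2480 bp in mock, 2791 bp after *E. coli* MVs and 2853 bp with those of *V. cholerae*, and 64 and 67 of the 76 members had a longer peak than in mock (84.2% and 88.2%, against 87.4% and 86.3% of all genes). The members' median log2 ratio per 1000 bp was 0.19 and 0.13, against 0.24 and 0.33 over all genes. The mock library held the fewest tags and the lowest share of tags in peaks of the 3, and the part of this difference in peak length was not tested.

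Other genes of mitochondrial and protein synthesis pathways are given for comparison, and their calls are to be read against the 11.1% higher and 2.40% lower of all genes with *E. coli* MVs and the 18.3% and 10.7% with those of *V. cholerae*. All 48 assembly factors of the complexes had H3K4me3 in each library, and their median log2 ratio to mock was 0.43 with *E. coli* MVs and 0.33 with those of *V. cholerae*, with 2 called higher and 0 lower, and 4 higher and 14 lower. The 78 mitochondrial ribosomal protein genes had medians of 0.34 and 0.31, with 2 higher and 3 lower, and 5 higher and 22 lower. The cytosolic ribosomal protein genes, 76 of 80 with a peak, had medians of 0.22 and 0.13, with 1 higher and 1 lower, and 0 higher and 25 lower. Among 15 regulators of respiratory genes, 14 had medians of 0.51 and 0.51, with 0 called in either direction for *E. coli* MVs and 1 higher and 1 lower for those of *V. cholerae*. The higher one was PPARGC1B, a coactivator of respiratory genes, with 303.1, 629.7 and 857.6 normalized tags, and the lower one TFB1M, a mitochondrial rRNA methyltransferase, with 597.6, 638.3 and 574.9. NRF1 itself had 487.9, 788.4 and 810, and its coactivator PPARGC1A had a peak only with *V. cholerae* MVs, of 36.9.

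**Figure D4:**
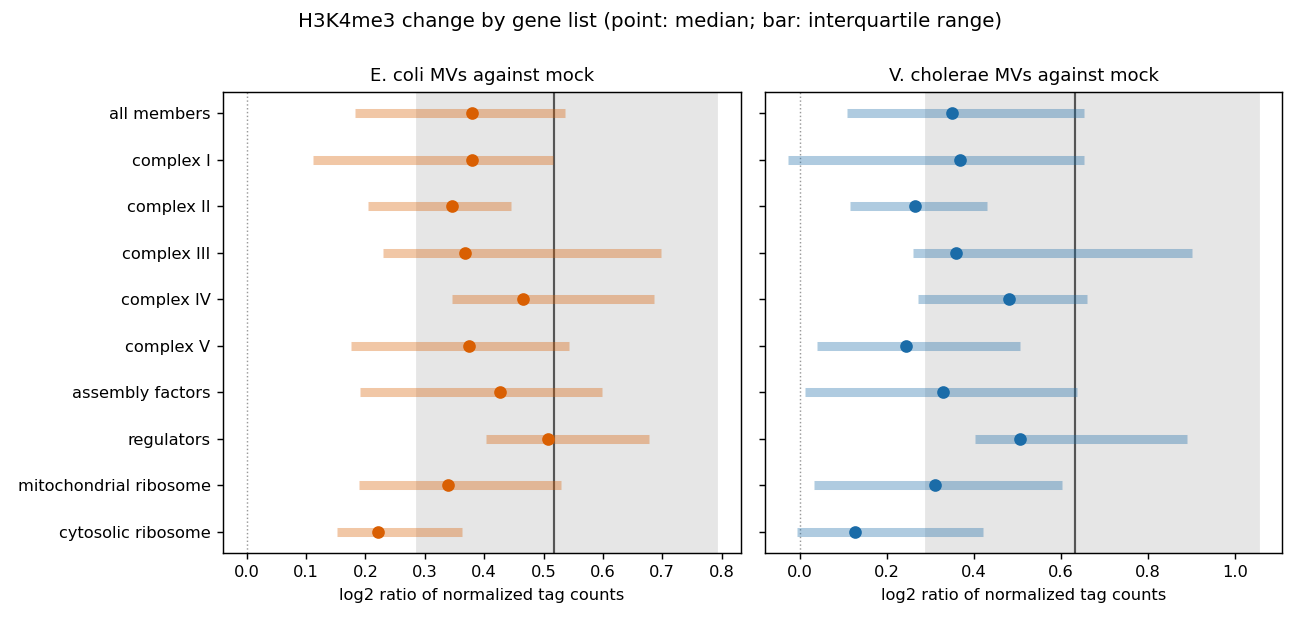
Log2 ratio of H3K4me3 normalized tag counts to mock (x axis) for the members, each complex and 4 other gene lists (y axis), with *E. coli* MVs (left) and *V. cholerae* MVs (right). Points are medians, coloured bars interquartile ranges, the grey line and band the median and interquartile range of all genes (medians 0.52 and 0.63), and each list's median lies below the grey line, the regulators nearest to it.

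In FAIRE the members had few peaks in mock and many after treatment. In mock 35 members had a peak (41.7%, against 43.2% of all genes), with *E. coli* MVs 79 (94.0% against 79.3%) and with *V. cholerae* MVs 68 (81.0% against 63.8%). A peak in all 3 libraries was found at 32 members (38.1% against 35.8% of all genes), a peak with both MVs but not in mock at 36 (42.9% against 25.7% of all genes), and a peak with *E. coli* MVs only at 8 (9.52% against 12.4%). The other mitochondrial lists had shares like those of the members. In mock, after *E. coli* MVs and after *V. cholerae* MVs a FAIRE peak lay at 47.9%, 97.9% and 91.7% of the assembly factors and at 44.9%, 97.4% and 88.5% of the mitochondrial ribosomal protein genes, and 45.8% and 42.3% of these lists had one with both MVs but not in mock. NDUFS4, UQCRHL, COX6A2, COX7B2 and ATP5MGL had none. The share of tags in peaks differed between the FAIRE libraries in the same order, 7.12% in mock, 13.9% with *V. cholerae* MVs and 37.3% with *E. coli* MVs, and its part in these counts was not tested. Of the 9 restricted isoforms or retrocopies 1 had a FAIRE peak in mock, 5 after *E. coli* MVs and 3 with those of *V. cholerae*. COX7A1 had 63.4 normalized tags with *E. coli* MVs and 24.8 with those of *V. cholerae*, COX4I2 46.9 and 9.94, and COX6B2 101.3 with *E. coli* MVs only, at start sites with little or no H3K4me3.

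The FAIRE peaks of the members lay at their H3K4me3 peaks more often after treatment. In mock 23 of the 35 members with a FAIRE peak had it over an H3K4me3 peak of the same treatment (65.7%, against 51.8% of all genes). With *E. coli* MVs it was 76 of 79 (96.2% against 78.9%) and with *V. cholerae* MVs 64 of 68 (94.1% against 80.9%). The start of the gene record was covered by a FAIRE peak at 31.4%, 88.6% and 76.5% of the members with a peak, against 25.7%, 77.5% and 60.95% of all genes. Of the 35 members with a FAIRE peak in mock and with *E. coli* MVs, 26 had peaks that overlapped between these libraries, and of the 32 for *V. cholerae* MVs 24 did.

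At the members with a FAIRE peak in both libraries the median log2 ratio to mock was 2.93 (2.68 to 3.44) for 35 members with *E. coli* MVs and 1.54 (1.07 to 2.01) for 32 with those of *V. cholerae*, against 3.07 and 1.38 over all genes. With *E. coli* MVs 8 were called higher and 10 lower, where 29.1% and 30.4% of all genes were, and with *V. cholerae* MVs 10 higher and 4 lower, where again 29.1% and 30.4% were. All 35 and 30 of the 32 had more FAIRE than in mock, against 99.0% and 88.6% of all genes. Between the MVs, the 68 members with both peaks had a median of -1.34 (-1.48 to -1.16) against -1.60 over all genes, 22 called higher and 10 lower, where 20.1% and 24.6% were. Each of the 68 had less FAIRE with *V. cholerae* MVs than with those of *E. coli*, as 98.1% of all genes did. The place of the members relative to all genes depended on the measure. Per 1000 bp of called peak their median log2 ratio was 1.77 against 1.27 over all genes for *E. coli* MVs, so that they stood higher and not lower, with 15 called higher and 0 lower (21.6% and 14.9% of all genes). For *V. cholerae* MVs it was 0.99 against 0.53, and between the MVs the relative difference went from 0.25 to 0.0032. Among genes that share no peak, the members stood 0.41 above all genes with *E. coli* MVs.

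**Figure D5:**
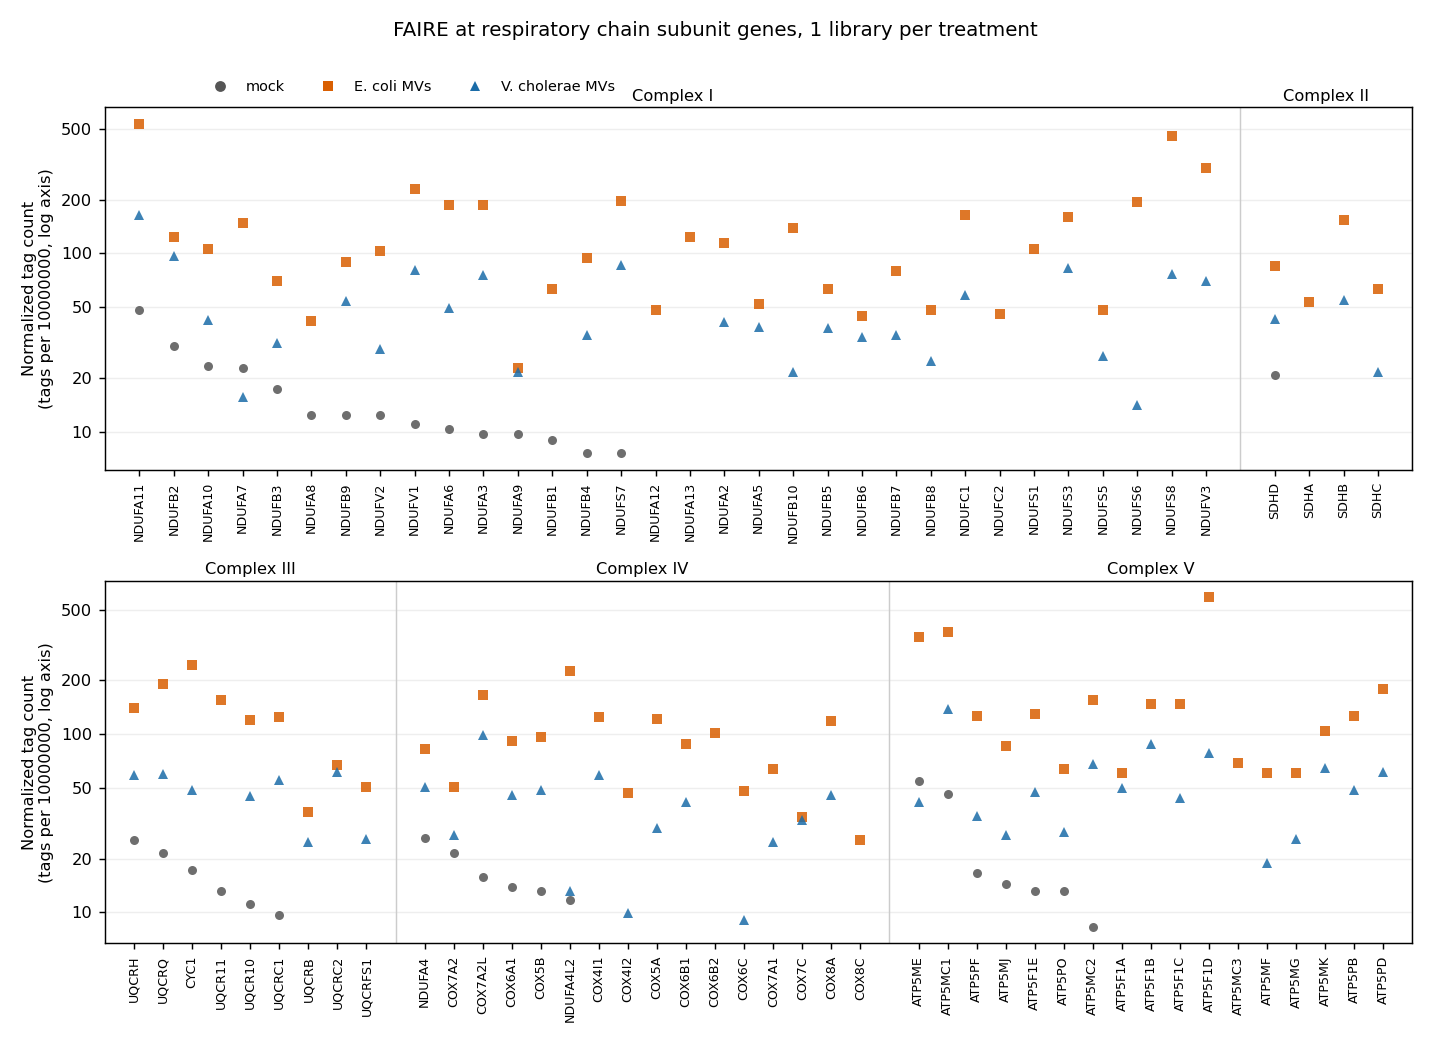
FAIRE of 78 of the 79 members with a peak in at least 1 library, as normalized tag count (tags per 10000000, log y axis), grouped by complex and ordered by the mock value (x axis). Each symbol is 1 library and a missing symbol a library without a peak, and the *E. coli* MV value is the highest of each gene.

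Added over the 3 libraries, normalized FAIRE tag counts were highest at NDUFA11, ATP5F1D and ATP5MC1. NDUFA11, a membrane subunit of complex I, had 48.39 normalized tags in mock, 533.7 after *E. coli* MVs and 163.1 with those of *V. cholerae*. ATP5F1D had no mock peak within 1000 bp of a start site, 584.4 and 78.6, while over its joined regions it had 27.67, 584.4 and 108.41. ATP5MC1 had 46.29, 375.2 and 139.1. The sum of ATP5F1D with *E. coli* MVs was spread over 14593 bp of called peak, in part shared with CBARP, and per 1000 bp it was 40.0, below the 60.2 of the median member. On that length-scaled measure ATP5MC1 was the highest member with both MVs, at 228 and 76.0. ATP5MC1, ATP5MC2 and ATP5MC3 encode the identical mature c subunit of the ATP synthase ring, and they differed in FAIRE more than in H3K4me3. ATP5MC2 had 8.29, 154.7 and 67.9 FAIRE tags and ATP5MC3 a FAIRE peak only with *E. coli* MVs, of 68.5. In H3K4me3 the 3 genes had 583.2, 668.7 and 674.0 for ATP5MC1, 398.4, 450.2 and 395.0 for ATP5MC2, and 441.7, 576.5 and 536.4 for ATP5MC3. COX8C (25.4), NDUFC2 (45.6) and NDUFA12 (48.2), the lowest in that sum of the members with any FAIRE peak, had one with *E. coli* MVs only.

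The FAIRE ratios ranged widely and rest on few mock tags. NDUFS7, a core complex I subunit, had 7.60 (11 tags), 197.7 and 86.04, and NDUFV1, the NADH-binding subunit, 11.1 (16 tags), 228.2 and 81.1, the highest log2 ratios to mock with *E. coli* MVs at 4.70 (3.82 to 5.73) and 4.36 (3.63 to 5.21). For NDUFS7 the peaks that overlap between the libraries put it 0.49 below the median of all genes. NDUFA4L2 had 11.7, 226.9 and 13.2, the *E. coli* value from a called peak of 6033 bp. Per 1000 bp it had 16.4, 37.6 and 26.4, a much smaller contrast. Over the joined region it had 20.68, 349.9 and 48.8, where the *E. coli* value stayed far above the others. NDUFA3 had 9.67, 186.3 and 75.4. The lowest ratios with *E. coli* MVs were those of NDUFA9 (9.67, 22.8 and 21.5), COX7A2 (21.4, 50.7 and 27.3) and NDUFA4 (26.29, 82.4 and 50.5), which all had more FAIRE than in mock. Of the members with a peak in both libraries, NDUFA7 (22.8, 148.3 and 15.7) and ATP5ME (54.5, 349.9 and 41.4) were the 2 with less FAIRE with *V. cholerae* MVs than in mock. Of all genes with both peaks 11.3% had less. Their counting intervals, -1.43 to 0.32 for NDUFA7 and -0.94 to 0.13 for ATP5ME on the log2 scale, include 0. NDUFA8 (12.4 in mock), NDUFB1 (8.98) and UQCR11 (13.1) had a mock peak and none with *V. cholerae* MVs, so no ratio was formed for them. For ATP5ME the direction turned on other measures, with 20.3 in mock and 41.6 with *V. cholerae* MVs per 1000 bp of called peak and 54.5 and 57.1 over the joined region. COX7C (34.2 and 33.1) and UQCRC2 (67.2 and 61.3), without a mock peak, had nearly equal FAIRE with both MVs, while NDUFS6 had 193.9 with *E. coli* MVs and 14.1 with those of *V. cholerae*. The latter is 1 piece of a region called in parts, and over the joined region NDUFS6 had 193.9 and 58.9.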

How the data were processed

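H3K4me3 ChIP and FAIRE sequencing peak lists of HCT8 cells, 1 library per treatment and assay, were used. The authors aligned reads to hg19 and called peaks per library with HOMER against input, at 4-fold or more and a Poisson p of 0.0001, per the file headers. Versions in the submitters' processing notes are HOMER 4.7.2, SAMtools 1.3.1 and Bowtie 1.1.2. The study's methods name Bowtie 2, MACS and HOMER instead. The deposited normalized tag count is a signal per 10000000 tags of the library, and the deposited fold of a peak over input is a ratio, used only in an alternative at 8-fold. Whole tags were recovered from the signal and the library total. Peaks were joined to start sites of GENCODE release 44 lifted to GRCh37, within 1000 bp, and a peak near several genes counted for each.

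Log2 ratios were formed where both libraries had a peak and centred on the median of all genes, with a fold of 1.5 for calls. No test could be run with 1 library per group. Intervals are exact 95% binomial ones for tags and from ranks for medians, the latter treating genes as independent. PCR copies are not removed from tags, and intervals cover counting error only. The members and the gene lists were chosen with earlier results of these data known. Named genes are, in each comparison, the 3 members at either end of the ratios, those with the highest and lowest mean level in each assay, members without H3K4me3, complex II, the isoform pairs and ATP5MC1 to ATP5MC3. NDUFB3, ATP5PF and, outside the members, PPARGC1B, TFB1M, NRF1 and PPARGC1A were named after their values were seen. The values of 1 member are not reported here by name and are left out of the plots by gene, but it is in all counts and medians. The ratios and counting intervals of single genes were tested on simulated tag counts. The rank interval of a median was checked only on 1 run of whole numbers. Python 3.11.15, numpy 2.4.6, pandas 2.3.3, scipy 1.17.1 and matplotlib 3.10.9 were used. Alternatives changed the centring, the window, the start sites, the unit, the peaks compared, the peak threshold and the fold. The input libraries and the RNA sequencing of the study were not used here.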

Additional observations from a re-analysis of the deposited data

Results flagged for a closer look

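The mitochondrial genome, which encodes the subunits of complexes I, III, IV and V that the nucleus does not, was outside the comparisons of nuclear genes and held FAIRE peaks above the mock level with both MVs. In mock, 3 peaks had a summed normalized tag count of 838.7 over 3555 bp, or 236 per 1000 bp. With *V. cholerae* MVs 3 peaks held 4695.6 over 7638 bp, or 615 per 1000 bp, and with *E. coli* MVs 1 peak held 19632 over 15528 bp, or 1264 per 1000 bp. No H3K4me3 peak was called there in any of the 3 libraries. Each value is from 1 library, the difference was not tested, and the number of mitochondrial genomes and their recovery in each library cannot be told apart.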

How the results depend on the processing

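No paired analysis was possible because only 1 library exists per treatment in either assay. The limits are the single library per group, which leaves no measure of the spread between cultures, the depth of the H3K4me3 mock library, and the few tags of the FAIRE mock peaks. Of 198 recomputed summary values 132 stayed near the reported value, 62 moved and 4 reversed. A value counts as reversed only where a median changed sign and its reported interval lay wholly above or below the median of all genes. A sign change of any other median is counted among the 132 or the 62, as for FAIRE with *E. coli* MVs per 1000 bp. Of 245 values of single genes 199 stayed on their side of the fold, 5 passed it and 21 fell below it. Another 20, all of genes called at the reported setting, changed sign. A sign change of a gene not called at that setting is counted among the 199. The cause of a move was not tested, except that leaving out genes lowers counts by itself. Joined regions and centring by band of GC content or of mean normalized tag count were chosen after seeing the data.

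The relative median of the members in H3K4me3 was -0.14 with *E. coli* MVs and -0.28 with those of *V. cholerae* against mock. Without centring these were 0.38 and 0.35, with 14 and 21 members called higher (18.4% and 27.6%, against 42.6% and 53.4% of all genes) and 0 lower, and *V. cholerae* against *E. coli* MVs gave -0.053 with 2 higher (2.60% against 6.27%). FAIRE without centring gave 2.93 (35 higher, 0 lower), 1.54 (28 higher, 0 lower) and, between the MVs, -1.34 (0 higher, 60 lower), where 97.2%, 74.9% and, lower, 91.7% of all genes were called. It also turned NDUFA9 (1.24), COX7A2 (1.24) and NDUFA4 (1.65) with *E. coli* MVs, NDUFA4L2 (0.17) with *V. cholerae* MVs and COX7C (-0.047), NDUFA9 (-0.085) and UQCRC2 (-0.13) between the MVs.

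Centring by GC band gave -0.090 and 0 lower for H3K4me3 with *V. cholerae* MVs, 0 lower with *E. coli* MVs, -0.026 between the MVs, and 11 higher in FAIRE between the MVs. Centring by band of mean level kept the H3K4me3 medians below 0. They were -0.068 (-0.13 to -0.021) with *E. coli* MVs, -0.19 (-0.29 to -0.083) with *V. cholerae* MVs and -0.13 (-0.17 to -0.066) between the MVs. This centring left 7 lower with *V. cholerae* MVs. The shares of all genes called under centring by band were not computed. With genes that share no peak, H3K4me3 gave -0.42 and 11 lower of 40 members with *V. cholerae* MVs (27.5% against 12.0% of all genes). It gave 2 lower of 41 with *E. coli* MVs (4.88% against 3.41%) and 0 higher of 41 between the MVs (against 4.44%). FAIRE gave 0.41 and 5 lower of 18 with *E. coli* MVs (27.8% against 31.1%), and 2 lower of 18 with *V. cholerae* MVs (11.1% against 31.4%). Between the MVs FAIRE gave 13 higher and 5 lower of 36 (36.1% and 13.9%, against 21.1% and 25.4%). Joined regions left 0 higher in H3K4me3 between the MVs, where 3.57% of all genes were.

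Per 1000 bp of called peak, H3K4me3 gave 2 lower with *E. coli* MVs (2.63% against 5.24% of all genes), with NDUFA4L2 at -0.36. With *V. cholerae* MVs it gave 1 higher and 7 lower (1.32% and 9.21%, against 10.3% and 8.63%), with ATP5F1D at -0.29. FAIRE gave 0.50, 15 higher (42.9% against 21.6% of all genes) and 0 lower (against 14.9%) with *E. coli* MVs. There NDUFA4L2 stood at -0.074 and NDUFA4 at 0.52. With *V. cholerae* MVs FAIRE gave 1 lower (3.12% against 6.15%), with ATP5ME at 0.51 and NDUFA4L2 at 0.16. Between the MVs it gave 0.0032 and 8 higher (11.8% against 7.69%), with NDUFA9 at -0.042, NDUFA4L2 at 0.30 and NDUFS6 at 0.53. A window of 500 bp gave 2 lower for H3K4me3 with *E. coli* MVs (2.63% against 2.24% of all genes) and 2 higher between the MVs (2.60% against 3.87%). For FAIRE with *V. cholerae* MVs it gave 2 lower (6.90% against 30.1%), with ATP5ME at 0.32. Overlapping peaks alone gave 6 lower of 26 in FAIRE with *E. coli* MVs, where 31.9% of all genes were, with NDUFS7 at -0.49. With *V. cholerae* MVs they gave 6 higher of 24, where 28.2% of all genes were, with ATP5ME at 0.58. Between the MVs NDUFA7 stood at 1.81.

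The start of the gene record alone gave 2 higher for H3K4me3 with *E. coli* MVs (2.86% against 11.3% of all genes). For FAIRE it gave 4 higher with *E. coli* MVs (15.4% against 27.1%). With *V. cholerae* MVs FAIRE gave 5 higher and 2 lower (23.8% and 9.52%, against 26.3% and 28.0%), and 21 members had FAIRE in all 3 libraries. Peaks at least 8-fold over input left 1 member with FAIRE in all 3 libraries. With *E. coli* MVs 1 of 3 was higher and 1 lower, where 36.3% and 39.3% of all genes were. With *V. cholerae* MVs 1 member stood at -0.51, with 0 higher and 0 lower, where 34.2% and 20.2% of all genes were. Between the MVs it was -0.61 with 0 higher and 4 lower of 8, where 18.8% and 28.3% of all genes were. A fold of 2 for calls gave 0 lower for H3K4me3 with *E. coli* MVs (against 0.529% of all genes) and 1 lower with those of *V. cholerae* (1.32% against 1.40%). For FAIRE it gave 6 higher with *V. cholerae* MVs (18.8% against 17.2%). Between the MVs FAIRE gave 8 higher and 6 lower (11.8% and 8.82%, against 8.52% and 14.9%).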

Other observations

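The members shared their H3K4me3 peak with another protein-coding gene more often than other genes did. A partner that is a readthrough record of the same locus was not counted. In mock 34 of the 76 members with a peak did so (44.7%, against 31.4% of all genes with a peak), and the shares after *E. coli* and *V. cholerae* MVs were 44.2% and 45.5%, against 31.0% and 30.9%. SDHD shares its peak with TIMM8B, a chaperone of the intermembrane space, NDUFS6 with MRPL36 and NDUFA7 with RPS28, both ribosomal protein genes, COX4I1 with EMC8, a subunit of a complex of the endoplasmic reticulum, and NDUFA9 with AKAP3, an anchoring protein of sperm. ATP5PF, a coupling factor of ATP synthase, shares its peak with GABPA, which encodes the ETS subunit of the GABP factor, so that both genes have the same values, 733.3 normalized tags in mock, 980.2 after *E. coli* MVs and 906.9 with those of *V. cholerae*. A shared value does not say which of the start sites it belongs to.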
